A study of Mus musculus with 5 samples.

Results

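The genes followed here belong to milk lipid secretion: Btn1a1, Xdh, Plin2, Plin3, Cidea, Mfge8, Muc1, Muc15 and Fabp3. They were chosen by their symbols among the 22609 genes of the deposited table, as genes for proteins of the milk lipid droplet and of the milk fat globule membrane, and all 9 had a value. Poly(A) RNA came from mammary glands of outbred mice without lymph nodes, on the day of parturition and less than 12 hours after delivery. The Nfib-null group had 3 libraries and the wild-type group 2. Nfib encodes nuclear factor I/B, a transcription factor, and the study asks how it and STAT5, which carries the prolactin signal to the nucleus, shape gene expression of the gland in pregnancy. The labels give the tested genotype as Nfib-null (KO). They state neither a Cre driver nor the cells in which the gene was deleted, and they do not say whether libraries came from pooled animals.

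Milk fat leaves the alveolar cell in a way unlike any other secretion. Triglyceride is packed into droplets coated by perilipins, the droplets fuse and move to the apical surface, and they are pinched off inside a layer of plasma membrane. The transmembrane protein butyrophilin, the enzyme xanthine oxidoreductase and the droplet coat protein perilipin 2 are thought to hold droplet and membrane together. The resulting milk fat globule membrane also carries lactadherin and transmembrane mucins.

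The deposited values were RPKM, read counts divided by gene length and by the mapped reads of a library. They were given as 1 value for each gene and group. No spread between libraries was therefore known, no test was possible, and each difference is given by its size alone. The column named for the wild type matches the titles of those libraries. The other column, NfibFF-WC, was taken as the Nfib-null group by elimination. Nfib itself had 55.3 RPKM in Nfib-null and 33.7 RPKM in wild-type glands. A whole-gene value can include reads from outside a deleted stretch, so it does not check this assignment. Depth could only be estimated by taking the value of a gene with 1 annotated transcript as a single read. Within a fixed range of depths, such values most often matched about 27200000 reads in the Nfib-null column and 14900000 in the wild-type column. That commonest depth held only 32 of the 395 genes within the range in the Nfib-null column and 40 of 273 in the wild-type column. The estimate takes each value as the mean over the libraries of its group and the read as lying in 1 of them, which was not tested. On that assumption Cidea, the least abundant of the 9 genes in the Nfib-null group, would rest on about 1400 reads per library. Counting error on such a number is 2.68%. Among genes at 100 RPKM or more, 0 of 544 in the Nfib-null column and 8 of 489 in the wild-type column shared a value exactly with another gene, so wild-type values are approximate. None of the 9 genes was among the ties.

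The 9 genes did not differ as a block. Cidea, Fabp3, Btn1a1 and Xdh were much lower in the Nfib-null glands, Muc1, Muc15 and Mfge8 stood within 2-fold, and Plin2 and Plin3 lay close together and were not lower. A gene is called lower or higher here from a 2-fold difference of log2(RPKM + 1), after the columns were scaled so that the median gene did not differ. By that measure 4 of the 9 genes were lower, against 5.97% of the 12511 genes that averaged 1 RPKM or more. None of the 9 was higher, against 6.95% of those genes, and the other 5 lay within 2-fold. All 9 had a mean above that minimum in either group taken alone. Their median log2 difference, Nfib-null minus wild type, was −0.87, where the median over all genes tested was 1.8e-05 because the scaling sets it near 0. In whole tissue, fewer cells of a type and less RNA per cell cannot be told apart.

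**Figure D1:**
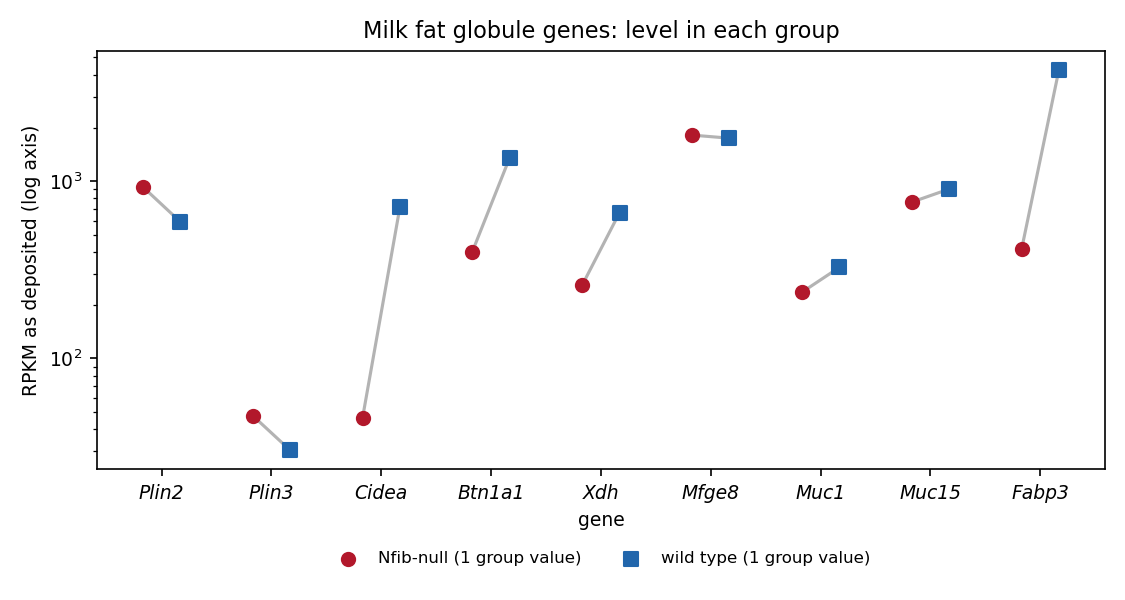
Deposited RPKM of the 9 genes on a log axis, with the Nfib-null value (circle, left) joined to the wild-type value (square, right), each a single group value without error. Fabp3 and Cidea show the widest gaps, at 414 RPKM in Nfib-null and 4261 RPKM in wild-type glands for Fabp3 and 46.1 RPKM in Nfib-null and 712 RPKM in wild-type glands for Cidea. The levels of Mfge8, 1823 RPKM in Nfib-null and 1751 RPKM in wild-type glands, nearly meet.

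The droplet coat genes came first in the path of the lipid. Plin2, which encodes perilipin 2, the main coat protein of droplets in the alveolar cell, stood at 931 RPKM in Nfib-null glands and 592 RPKM in wild-type glands. The scaled log2 difference was 0.24. Plin3, whose product is a perilipin that moves between cytosol and new droplets, stood far lower at 47.6 RPKM in Nfib-null glands and 30.4 RPKM in wild-type glands, with a log2 difference of 0.23. The ratio of Plin2 to Plin3, which needs no scaling between the columns, was 19.5 in both groups. Both genes were thus higher as deposited, by 1.57-fold each, near the middle of all genes after scaling, and of negative sign (−0.53 each) when the columns were scaled to luminal epithelial genes. Plin2 lay above 66.8% of all genes tested and Plin3 above 66.1% in their log2 difference.

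Cidea followed a different course from the coat genes. Its product sits on lipid droplets and promotes their fusion, and mice without it fail to secrete milk lipid normally. Cidea stood at 46.1 RPKM in Nfib-null glands and 712 RPKM in wild-type glands. The deposited wild-type value was 15.4 times the Nfib-null value, and the scaled log2 difference was −4.33. Only 4 of the 12511 genes tested had a more negative difference. In the wild type Cidea was thus more abundant per kilobase than Plin2, at 1.20 times its level, and in the Nfib-null glands it stood at 0.0495 times the level of Plin2. Cidea is also known from brown fat, and the defining brown fat gene Ucp1 stood at 0.139 RPKM in Nfib-null glands and was listed at 0 in wild-type glands. Elovl3, another brown fat gene, stood at 0.237 RPKM in Nfib-null glands and was listed at 0 in the wild type. Beside Cidea, 2 of the 6 brown fat genes passed the minimum, and they differed in opposite directions. Otop1 was lower, at 0.846 RPKM in Nfib-null and 7.98 RPKM in wild-type glands (log2 −2.56), and Cox8b higher, at 9.64 RPKM in Nfib-null and 2.42 RPKM in wild-type glands (1.30). The part of brown fat cells in the value of Cidea was not tested.

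Both genes for the proteins on the membrane side of the droplet contact were lower in Nfib-null glands. Btn1a1, butyrophilin, a transmembrane protein of the immunoglobulin superfamily at the apical membrane, stood at 401 RPKM in Nfib-null glands and 1359.6 RPKM in wild-type glands. The wild-type value was 3.39 times the other as deposited, and the scaled log2 difference was −2.17. Xdh encodes xanthine oxidoreductase, an enzyme of purine breakdown that binds the cytoplasmic tail of butyrophilin. It stood at 259 RPKM in Nfib-null glands and 666 RPKM in wild-type glands, a deposited ratio of 2.57 in favour of the wild type and a scaled log2 difference of −1.77. More negative differences were found in 121 of the tested genes for Btn1a1 and in 210 for Xdh. The ratio of Btn1a1 to Xdh was 1.55 in Nfib-null glands and 2.04 in wild-type glands, so that it differed by less than 2-fold between the groups. Set against Plin2, the partner on the droplet side, Btn1a1 was at 0.431 times its level in Nfib-null glands and 2.30 times in wild-type glands. For Xdh the corresponding values were 0.279 in Nfib-null and 1.12 in wild-type glands. The order of the 3 contact genes was therefore Plin2, Btn1a1, Xdh in Nfib-null glands and Btn1a1, Xdh, Plin2 in the wild type.

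**Figure D2:**
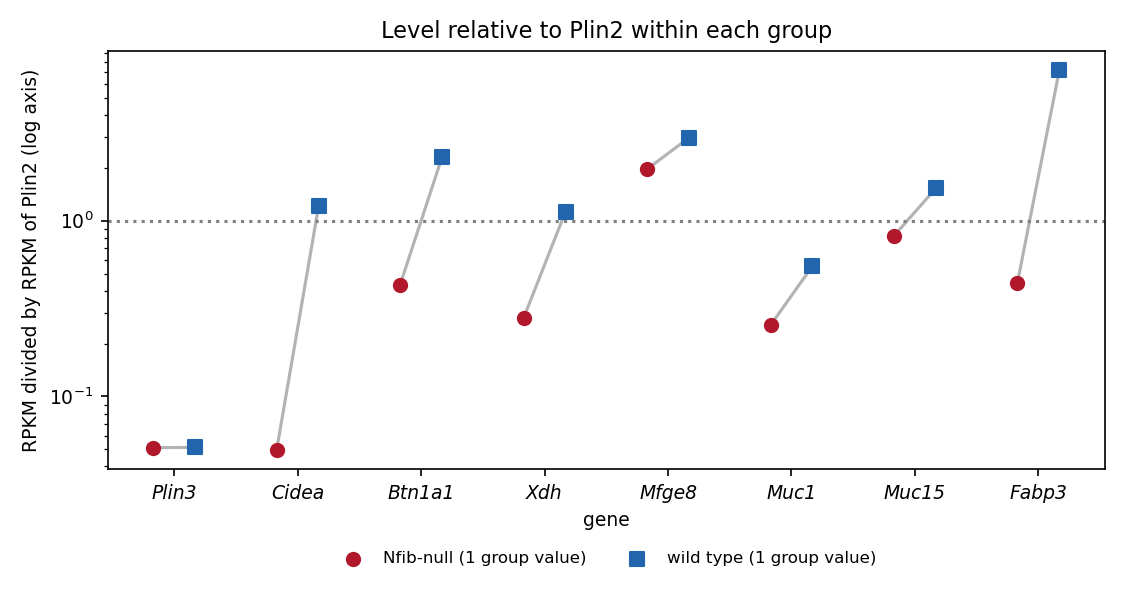
RPKM of each of the other 8 genes divided by the RPKM of Plin2 in the same column, on a log axis, with Nfib-null circles left and wild-type squares right. The dotted line marks the level of Plin2. Btn1a1, Xdh, Cidea, Muc15 and Fabp3 lie below the line in Nfib-null glands and above it in the wild type, Mfge8 lies above and Muc1 and Plin3 below it in both, and Plin3 keeps its place at 0.0512 in Nfib-null and 0.0514 in wild-type glands.

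Among the 9 genes, those for the surface proteins of the globule differed less than Btn1a1 and Xdh. Mfge8 encodes lactadherin, a secreted protein that binds phosphatidylserine and integrins, and it was the most abundant of the 9 genes in Nfib-null glands at 1823 RPKM, against 1751 RPKM in wild-type glands. It ranked 19 among all genes in either column. Its scaled log2 difference was −0.35, which became 0.06 with values as deposited and 0 with quantile normalization, so no direction is given for it. Muc15, a transmembrane mucin of the globule membrane, stood at 763 RPKM in Nfib-null glands and 904 RPKM in wild-type glands (log2 −0.66). Muc1, the longer known transmembrane mucin of the apical surface, stood at 237 RPKM in Nfib-null glands and 326 RPKM in wild-type glands (log2 −0.87). Neither mucin reached 2-fold by this measure. The ratio of Muc1 to Muc15 was 0.310 in Nfib-null glands and 0.361 in the wild type. The ratio of Btn1a1 to Mfge8, by contrast, was 0.220 in Nfib-null glands and 0.776 in wild-type glands.

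Fabp3, the fatty acid binding protein first known from heart, carries fatty acids through the cytosol. At 4261 RPKM it was the most abundant of the 9 genes in wild-type glands, where it ranked 13 among all genes. In Nfib-null glands it stood at 414 RPKM and ranked 142. The deposited wild-type value was 10.3 times the Nfib-null value, the scaled log2 difference was −3.77, and 12 of the tested genes had a more negative one. Fabp3 is also a gene of striated muscle. The 6 muscle genes examined summed to 47.5 RPKM in Nfib-null and 16.6 RPKM in wild-type glands, with the muscle creatine kinase gene Ckm at 0.208 RPKM in Nfib-null and 2.63 RPKM in wild-type glands. Most of the Nfib-null sum came from Acta1, at 31.9 RPKM in Nfib-null and 4.11 RPKM in wild-type glands. Of the 5 muscle genes above the minimum, Ckm and Tnni2 (log2 −1.21) were lower, Acta1 (2.32) was higher and the other 2 lay within 2-fold. The part of muscle in the value of Fabp3 was not tested. Of all pairs with either gene, Fabp3 and Cidea kept nearest to each other, with a ratio of Cidea to Fabp3 of 0.111 in Nfib-null glands and 0.167 in wild-type glands.

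Features of the annotation touch these values. In the GENCODE M21 annotation the exons of Fabp3 overlap those of Zcchc17 on the opposite strand by 81 bases, and the exons of Muc15 overlap those of Ano3 on the opposite strand by 61 bases. Whether counting took account of strand is not known from the labels, so reads of these stretches cannot be assigned. Zcchc17 stood at 15.2 RPKM in Nfib-null and 19.2 RPKM in wild-type glands, and Ano3 at 15.3 RPKM in Nfib-null and 15.6 RPKM in wild-type glands. A processed pseudogene of Fabp3 is annotated as well, and how reads shared with it were treated is not given in the sources used here.

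The order of abundance within the 9 genes was accordingly rearranged. In Nfib-null glands it ran Mfge8, Plin2, Muc15, Fabp3, Btn1a1, Xdh, Muc1, Plin3, Cidea. In wild-type glands it ran Fabp3, Mfge8, Btn1a1, Muc15, Cidea, Xdh, Plin2, Muc1, Plin3. Without a spread over libraries, neighbours such as Fabp3 and Btn1a1 in Nfib-null glands, at 414 and 401 RPKM, cannot be ordered. Mfge8 and Plin2 together made up 56.0% of the summed RPKM of the 9 genes in Nfib-null glands and 22.1% in wild-type glands. Fabp3, Cidea, Btn1a1 and Xdh made up 22.8% in Nfib-null glands and 66.0% in wild-type glands.

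Ratios between members put the same division without any scaling of one column to the other. Among the 36 pairs of the 9 genes, 25 had a ratio that differed by at least 2-fold between the groups. The pairs restate the same 9 values per column and are no separate evidence, and no share over pairs of other genes was computed. The 11 pairs that did not were Plin2 with Plin3, Btn1a1 with Xdh, Cidea with Fabp3, Xdh with Muc1, the 3 pairs among Mfge8, Muc1 and Muc15, and the 4 pairs of Plin2 or Plin3 with Mfge8 or Muc15. The steadiest ratio was that of Plin2 to Plin3, and the most different was that of Plin2 to Cidea, at 20.2 in Nfib-null glands and 0.831 in wild-type glands.

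**Figure D3:**
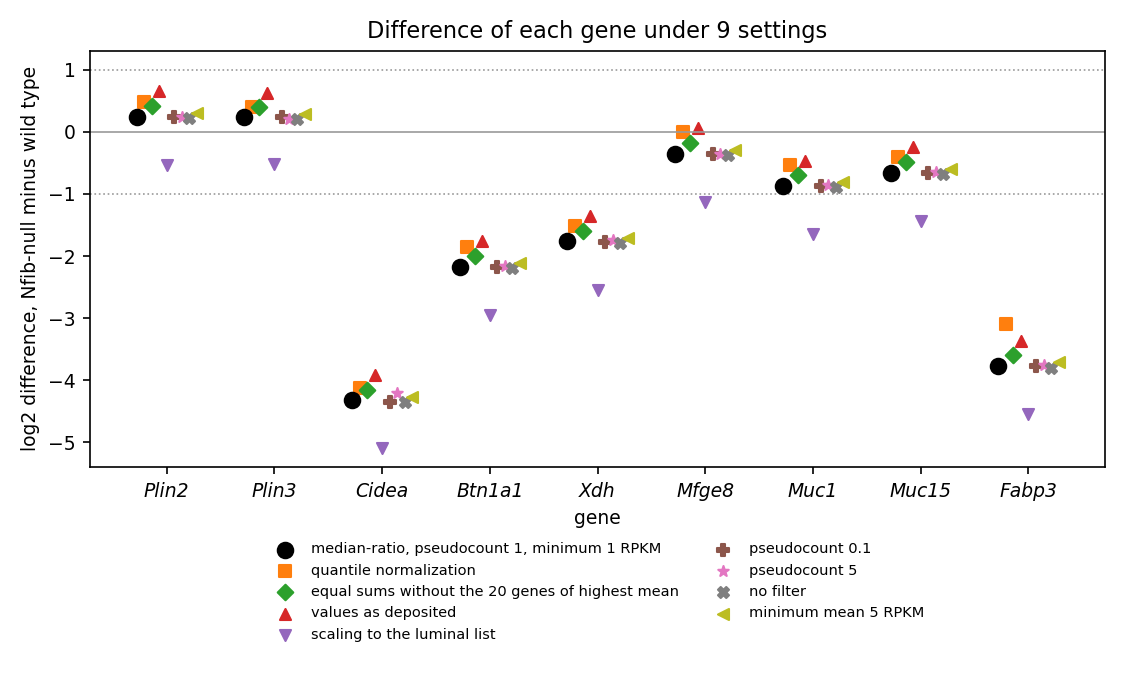
Log2 difference, Nfib-null minus wild type, of each gene under the scaling used in the text (black) and 8 alternatives (colours), with dotted lines at 2-fold. Cidea, Fabp3, Btn1a1 and Xdh stay below the lower line under all 9 settings, Mfge8, Muc1 and Muc15 cross it with scaling to luminal genes, and Plin2, Plin3 and Mfge8 change sign under at least 1 setting.

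The scaling of the columns decided the sign for Plin2, Plin3 and Mfge8. The sum of all RPKM was 548491 in the Nfib-null column and 947746 in the wild-type column, and the 22 soluble milk protein genes made up 171019 of it in Nfib-null and 622326 in the wild type. With values as deposited the median of all genes moved to 0.35, and with equal sums without the 20 most abundant genes to 0.15. With scaling to luminal epithelial genes it moved to −0.67. Cidea, Fabp3, Btn1a1 and Xdh were lower under each of these. The least negative values were −3.92 for Cidea, −3.10 for Fabp3, −1.76 for Btn1a1 and −1.36 for Xdh. The share of all genes lower by 2-fold was 2.95% as deposited, 4.37% with equal sums and 5.56% with quantile normalization. At a limit of 1.5-fold 6 of the 9 genes were lower, against 14.7% of all genes, and at 4-fold 3 were, against 1.23%. With scaling to luminal genes Muc1 (−1.65), Muc15 (−1.43) and Mfge8 (−1.13) also passed 2-fold, which made 7 of 9 genes lower where 28.3% of all genes were. The 9 genes held 0.897% of all summed RPKM in the Nfib-null column and 1.12% in the wild-type column. Leaving the 22 soluble milk protein genes out of the total, the share was 1.30% in the Nfib-null and 3.26% in the wild-type column.

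**Figure D4:**
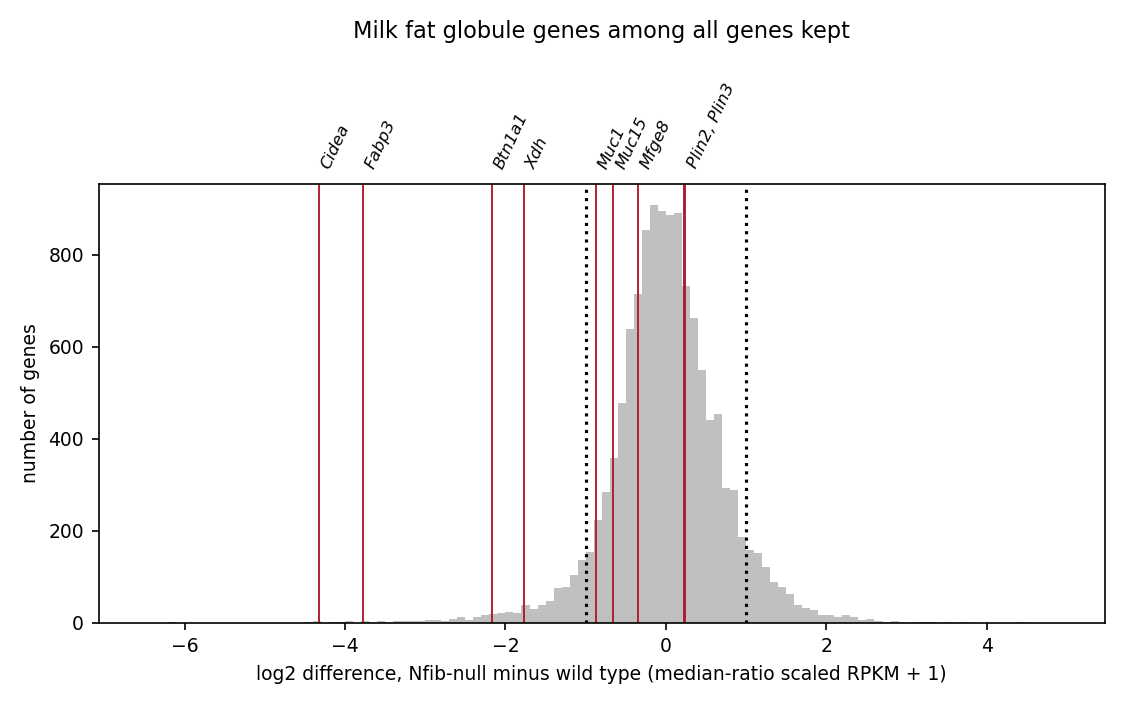
Distribution of the log2 difference, Nfib-null minus wild type, over the 12511 genes kept (grey bars, 0.1 wide), with the 9 genes as red lines and 2-fold as dotted lines. Cidea at −4.33 and Fabp3 at −3.77 lie in the far lower tail, and Plin2 and Plin3, at 0.24 and 0.23, fall within the main peak, with a sign that turns under scaling to luminal genes.

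Markers of several cell types in the gland differed between the groups as well. Over all genes tested 5.97% were lower and 6.95% higher. Of 15 luminal epithelial genes, the layer that holds the alveolar cells, 6 were higher and 1, Elf5, was lower. As deposited 10 were higher and 1 lower, where 14.4% of all genes were higher and 2.95% lower. The summed level of the 15 was 2288 RPKM in Nfib-null and 1579.7 RPKM in wild-type glands. Elf5 alone gave 321 RPKM of the Nfib-null sum and 711 RPKM of the wild-type sum. Of 9 white adipocyte genes 8 were higher, with summed levels of 10038 RPKM in Nfib-null and 2064 RPKM in wild-type glands. Of 8 macrophage genes 7 were higher, with sums of 446 RPKM in Nfib-null and 130.4 RPKM in wild-type glands. With scaling to luminal genes 7 of the adipocyte and 0 of the macrophage genes were higher, where 1.57% of all genes were. None of 6 myoepithelial genes (median log2 0.33) and none of 6 endothelial genes (−0.05) differed by 2-fold. As deposited and with equal sums 2 of the endothelial genes, Vwf and Cldn5, were higher. With luminal scaling 1 of each list was lower, Myh11 (−1.13) and Kdr (−1.01), where 28.3% of all genes were. Of the 22 soluble milk protein genes 14 were lower and 3 higher. The higher ones were Lyz2 (1.28), Apoe (1.38) and Alb (1.26), while the casein genes, Wap and Lalba were all lower. The counts for the soluble milk protein genes depended on the scaling, and most on quantile normalization. With it 7 were lower and 6 higher, where 5.56% of all genes were lower and 821 of 12511 higher. Quantile normalization put Csn2, Csn3 and Csn1s2a at 0, although they were lower as deposited (−1.50, −1.97 and −1.28). As deposited 13 of the 22 were lower and 4 higher. With equal sums 14 were lower and 4 higher, where 4.37% of all genes were lower and 1177 of 12511 higher. With luminal scaling 15 were lower and 0 higher, beside 28.3% and 1.57% of all genes. Plin2 is made in adipocytes and macrophages too, and Mfge8 in macrophages, and the part of these cells in the values of Plin2 and Mfge8 was not tested. Ratios of the 9 genes to each of the 15 luminal genes, from deposited values, were added after the values had been seen. Cidea, Fabp3, Btn1a1 and Xdh were lower in Nfib-null glands relative to all 15 luminal genes. Mfge8, Muc1 and Muc15 were lower relative to 13 of them and Plin2 and Plin3 relative to 12. The exceptions included Elf5, at 321 RPKM in Nfib-null and 711 RPKM in wild-type glands, relative to which these 5 genes were higher. The median gene kept, at a deposited log2 ratio of 0.41, was likewise lower relative to 12, so the counts for these 5 genes are near that of a typical gene. The share of all genes lower relative to all 15 was not computed.

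Promoter sequences were at hand in RefSeq (build GRCm38.p6) for 5 of the 9 genes: Fabp3, Mfge8, Muc1, Plin2 and Plin3. The 250 bases before the annotated start were read, because the study concerns NFIB and STAT5, whose motifs have short fixed letters. The NFI core TTGGC was searched on both strands, as were the full NFI site, which is the core followed after 5 bases by its reverse complement, and the STAT5 motif TTCNNNGAA. Among 32817 such windows of all promoters, 41.5% held the core, 0.0366% the full site and 7.01% the STAT5 motif. Of the 5 windows, that of Plin3 held the NFI core, on the strand of the gene and 74 to 70 bases before its start, and none held either of the other motifs. Shown are Fabp3, of much lower level in Nfib-null glands, and Plin2 and Plin3, whose ratio was 19.5 in both groups, with capitals for the NFI core. The Fabp3 window is chr4:130308488-130308737, plus strand, that of Plin2 chr4:86670060-86670309, minus strand, and that of Plin3 chr17:56290512-56290761, minus strand, each printed from 5′ to 3′ along the gene.
Fabp3: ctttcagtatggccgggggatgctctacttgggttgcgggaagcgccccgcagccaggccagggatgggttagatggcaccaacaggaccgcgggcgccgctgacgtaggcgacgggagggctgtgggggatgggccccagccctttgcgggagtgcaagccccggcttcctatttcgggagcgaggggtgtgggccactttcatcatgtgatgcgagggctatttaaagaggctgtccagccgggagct
Plin2: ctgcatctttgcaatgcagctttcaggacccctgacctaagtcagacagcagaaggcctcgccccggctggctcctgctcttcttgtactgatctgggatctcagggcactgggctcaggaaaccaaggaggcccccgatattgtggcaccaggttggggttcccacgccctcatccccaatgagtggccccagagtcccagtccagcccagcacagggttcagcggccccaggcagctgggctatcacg
Plin3: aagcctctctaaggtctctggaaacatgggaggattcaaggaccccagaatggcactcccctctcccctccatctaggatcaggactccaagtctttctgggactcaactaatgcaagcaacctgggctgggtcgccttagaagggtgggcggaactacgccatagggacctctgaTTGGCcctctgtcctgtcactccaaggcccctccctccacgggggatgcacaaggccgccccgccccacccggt
The share of G and C was 64.8% in the Fabp3 window, 61.6% in that of Plin2 and 60.0% in that of Plin3. A match is a description of letters in the window, and no match says nothing about binding elsewhere.

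Relatives of the 9 genes were compared next, because several belong to families with members in other cells of the gland. Of 5 perilipin and CIDE relatives Cideb lay below the minimum, and the other 4 were higher in Nfib-null glands, beside 6.95% of all genes. With scaling to luminal genes 3 were higher, beside 1.57% of all genes, and with quantile normalization 3, beside 821 of 12511. Plin1, the perilipin of adipocytes, stood at 153 RPKM in Nfib-null and 29.7 RPKM in wild-type glands (log2 1.92). Plin4 stood at 135 RPKM in Nfib-null and 21.1 RPKM in wild-type glands (2.22) and Plin5 at 2.49 RPKM in Nfib-null and 0.487 RPKM in wild-type glands (1.02), the last within 2-fold with quantile normalization (0.80) or scaling to luminal genes (0.61). Cidec, the CIDE protein of the unilocular fat droplet, stood at 503 RPKM in Nfib-null and 69.3 RPKM in wild-type glands (2.43). Plin1 and Cidec are also among the adipocyte genes above. Cidec was thus at 10.9 times the level of Cidea in Nfib-null glands and at 0.0974 times in wild-type glands.

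In the fatty acid binding protein family only Fabp4 and Fabp5 passed the minimum beside Fabp3. Fabp4, the adipocyte form, was higher at 5819 RPKM in Nfib-null and 1183 RPKM in wild-type glands (log2 1.89). Fabp5, the epidermal form, stood at 168 RPKM in Nfib-null and 152 RPKM in wild-type glands (−0.27, with 0.14 as deposited and −1.04 with scaling to luminal genes). The butyrophilin relatives Btn2a2, at 2.18 RPKM in Nfib-null and 3.46 RPKM in wild-type glands, and Btnl9, at 15.6 RPKM in Nfib-null and 11.7 RPKM in wild-type glands, lay within 2-fold, although Btn2a2 passed it with scaling to luminal genes (−1.35). The membrane mucins Muc4, at 12.0 RPKM in Nfib-null and 10.2 RPKM in wild-type glands, and Muc20, at 30.8 RPKM in Nfib-null and 30.5 RPKM in wild-type glands, also lay within 2-fold, and Muc20 passed it with scaling to luminal genes (−1.14). None of 3 genes of the lactadherin list was 2-fold apart after scaling. As deposited Itgb3, an integrin subunit gene at 5.17 RPKM in Nfib-null and 2.04 RPKM in wild-type glands, passed 2-fold (1.02). The integrin subunit gene Itgav stood at 12.3 RPKM in Nfib-null and 17.9 RPKM in wild-type glands, and was lower by 2-fold under luminal scaling (−1.62). Itgb5, also an integrin subunit gene, stood at 43.5 RPKM in Nfib-null and 26.3 RPKM in wild-type glands.

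Xanthine oxidoreductase needs a molybdenum cofactor, and the genes that make it were listed with the related molybdenum enzymes. Of 8 such genes 1 was lower and 1 higher, beside 5.97% and 6.95% of all genes, with a median of −0.28 that turned to 0.10 as deposited. Luminal scaling left 4 lower and 0 higher, beside 28.3% and 1.57% of all genes. The lower gene was Mocs1, whose products carry out the first step of cofactor synthesis, at 29.3 RPKM in Nfib-null and 75.7 RPKM in wild-type glands. Its log2 difference of −1.74 was close to that of Xdh (−1.77), and it stayed lower by 2-fold under all 4 other scalings, with −1.34 as deposited. Mocs2, which encodes the subunits for the next step, stood at 28.1 RPKM in Nfib-null and 26.1 RPKM in wild-type glands. The higher gene was Aox1, an aldehyde oxidase, at 8.81 RPKM in Nfib-null and 1.97 RPKM in wild-type glands (log2 1.40), which came within 2-fold with scaling to luminal genes (0.78).

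Genes for other proteins found in the milk fat globule membrane showed a wide range. Of 15 genes 5 were lower and 3 higher, with a median of −0.01, beside 5.97% lower and 6.95% higher over all genes. As deposited 5 were higher, beside 14.4% of all genes. Luminal scaling left 7 lower and 1 higher, beside 28.3% and 1.57% of all genes. Rab18, a small GTPase of lipid droplets, stood at 114 RPKM in Nfib-null and 401 RPKM in wild-type glands (log2 −2.22), close to the difference of Btn1a1. Abcg2, the transporter that exports riboflavin and drugs into milk, stood at 36.1 RPKM in Nfib-null and 226 RPKM in wild-type glands (−3.02). The folate receptor gene Folr1 stood at 171 RPKM in Nfib-null and 508 RPKM in wild-type glands (−1.97), and Glycam1 (−4.09) and the phosphate transporter gene Slc34a2 (−4.35) were also lower. The wild-type value of Glycam1 is among the exact ties, shared with Wap, so its difference is approximate. Cd36, a fatty acid transporter of the globule membrane, stood at 465 RPKM in Nfib-null and 477 RPKM in wild-type glands (−0.45). The higher genes were the annexins Anxa1 (1.95) and Anxa2 (1.49) and the stomatin gene Stom (1.01), all broadly expressed outside the epithelium. With scaling to luminal genes Anxa2 (0.72) and Stom (0.28) came within 2-fold, and Cd36 (−1.22) and Arf1 (−1.40) were lower by 2-fold.

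Genes that form and empty lipid droplets were split as well. Of 18 genes kept, 4 were lower and 4 higher, beside 5.97% and 6.95% of all genes, with a median of −0.05 that turned to 0.35 as deposited. Under luminal scaling 8 were lower and 2 higher, beside 28.3% and 1.57% of all genes. G0s2, an inhibitor of the main triglyceride lipase, was lower at 144 RPKM in Nfib-null and 793 RPKM in wild-type glands (log2 −2.86). The fatty acid activating enzyme gene Acsl1 stood at 343 RPKM in Nfib-null and 645 RPKM in wild-type glands (−1.32), Abhd5, the co-activator of that lipase, at 67.5 RPKM in Nfib-null and 132 RPKM in wild-type glands (−1.36), and Lpin1, a phosphatidate phosphatase gene, at 39.5 RPKM in Nfib-null and 75.7 RPKM in wild-type glands (−1.33). These last 3 lay within 2-fold with values as deposited. The lipase gene Pnpla2 was higher at 378 RPKM in Nfib-null and 89.5 RPKM in wild-type glands (1.66). The lipase genes Lipe (1.84) and Mgll (1.19) and the acyltransferase gene Dgat2 (2.36) were higher too. Lipe is also an adipocyte marker here. With scaling to luminal genes Pnpla2 (0.88) and Mgll (0.42) came within 2-fold.

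**Figure D5:**
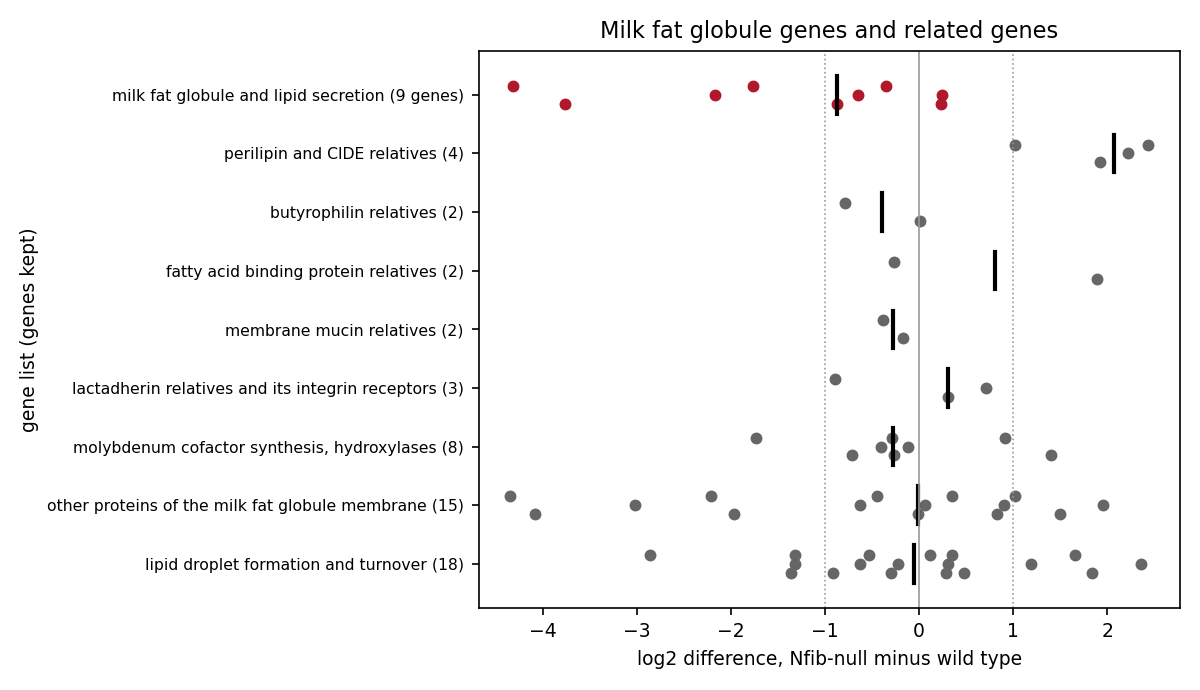
Log2 difference, Nfib-null minus wild type, of the 9 genes (red, top) and of the genes kept in 8 related lists (grey), with each median as a black bar and 2-fold as dotted lines. The 9 genes reach from −4.33 to 0.24, while the 4 perilipin and CIDE relatives all lie beyond 1 under the scaling used in the text. Medians near 0 turn sign with the scaling.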

How the data were processed

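RNA sequencing of 5 mammary gland libraries was analysed, 3 labelled Nfib-null and 2 wild type. The values were deposited by the authors as RPKM for 22609 genes, with a single value per gene and group, per the file headers. Per the submitters' processing notes, CASAVA and TopHat were used with mouse build mm9. The versions, the counting tool and its annotation: not given in the sources used here. By elimination, NfibFF-WC was read as the Nfib-null column.

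Genes averaging 1 RPKM or more, weighted by 3 and 2 libraries, were kept (12511 of 22609). Each column was divided by a median-ratio factor, 1.15 for Nfib-null and 0.867 for the wild type, and differences are Nfib-null minus wild type of log2(scaled RPKM + 1), a scale that understates low genes. With group values alone, neither the limma fit considered beforehand nor any test could be run, so a gene is called from 2-fold. Ratios within a column and RPKM are as deposited. Calculations used Python 3.11.15, pandas 2.3.3 and NumPy 2.4.6, and the scaling was run on simulated data. That simulation shifted all genes alike and changed a small set of genes, up and down in equal numbers. It did not hold the imbalance of the milk protein genes, so it cannot show that the scaling suits these data. Depth was estimated by taking low values as 1 read, with GENCODE M21 lengths (GRCm38, not the authors' build). The 9 genes, the 8 related lists and the markers were chosen with earlier results of these data known. The genes named were all 9, and in each related list those at least 2-fold apart and the 2 of highest mean. Marker lists are given by counts and sums, and single markers and other genes outside the rule were named after their values had been seen. Tried as alternatives were 4 other scalings, pseudocounts of 0.1 and 5, no minimum or a minimum of 5 RPKM, fold limits of 1.5 and 4, and other totals for the share.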

Additional observations from a re-analysis of the deposited data

How the results depend on the processing

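No paired analysis was possible because the file holds 1 value per group, and for the same reason no library could be left out in turn. The number of the 9 genes at least 2-fold lower was 4 under 7 of the 8 alternatives at that limit and 7 with scaling to luminal genes. It was 6 at a limit of 1.5 (14.7% of all genes) and 3 at 4-fold (1.23%), and the number higher was 0 throughout. The median of the 9 genes was −0.53 with quantile normalization, −0.70 with equal sums, −0.46 as deposited, −1.65 with luminal scaling, −0.86 with a pseudocount of 5, −0.90 without a minimum and −0.81 with a minimum of 5 RPKM. Over all genes the numbers lower and higher were 369 and 1800 as deposited, 3545 and 197 with luminal scaling, 444 and 346 with a pseudocount of 5, 1833 and 2145 at a limit of 1.5, and 154 and 91 at 4-fold, and 1313 were higher with a pseudocount of 0.1. The share of the 9 genes, 0.897% in Nfib-null and 1.12% in wild-type glands, was 1.30% and 3.26% without the soluble milk proteins. It was 1.19% and 2.28% without the casein, Wap and Lalba genes alone, a choice made after seeing the data. The cause of these shifts was not tested. The spread of libraries is unknown, and depth was estimated only roughly.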
